A study of Mus musculus with 8 samples.

Results

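The response of E2F3LQ mouse embryonic fibroblasts (MEFs) to serum starvation was read from the 4 arrays labelled with the E2F3 L430Q genotype, of 8 arrays in the series. The starved arrays of clone 2 and clone 4 were compared with the proliferating arrays of the same clones, so that each clone gave its own change beside the mean of both. The E2F3LQ cells carry a leucine to glutamine substitution, L430Q, in the part of the E2F3 protein that binds Rb, on a C57BL/6 background. Proliferating cells were in medium with 10% FBS, and starved cells had no FBS for 72 h, as the labels give it. Per the methods, the MEFs were homozygous cultures from embryos of 13.5 days of an intercross of heterozygous knock-in mice, made with a floxed neomycin cassette that a cross to Mox2Cre mice removed. The 4 WT arrays, of clones 1 and 16 in the same conditions, background and embryo age, served for the spread of the fit and for a comparison of the response. The spread behind each p-value is that between cultures of different clones, and the number of clones limits the precision.

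Fibroblasts without serum leave the cell cycle and enter a reversible resting state. In that state Rb family proteins hold E2F factors on the promoters of replication genes, the DREAM complex holds mitotic genes silent, and actin genes lose the input of serum response factor. Cultured fibroblasts at rest are also known for secreting matrix and complement proteins.

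Intensities were background-corrected and quantile-normalized, and each level below is a log2 normalized intensity. Of 25697 probes, 12669 were detected at p under 0.05 on at least 2 of the 4 E2F3LQ arrays. Taking the brightest probe of each gene left 9500 features, of which 8778 were named genes and 722 were probes with no gene name. On all 8 arrays the median raw intensity lay between 108.4 and 127.3, and 47.2% to 48.3% of probes were detected. Levels under about 4.7 lay at the background, since the lowest detected probe of an array lay between 4.71 and 4.75. The clones kept their identity across the conditions. Eif2s3y, a gene of the Y chromosome, was at 7.36 in proliferating and 7.18 in starved clone 2, and Xist, the RNA of the inactive X, was at 6.98 and 7.22 in clone 4. Each was at background in the other clone, so that clone and embryo sex cannot be told apart here.

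The proliferating array of clone 2 stood apart from the rest. On the first principal component, which held 57.2% of the variance of the 8 arrays, it lay at -7.27, while the other proliferating arrays lay between -36.3 and -32.4 and the starved arrays between 24.3 and 29.9. The SD over features of the difference between the clones was 0.728 in proliferating and 0.348 in starved E2F3LQ cells, against 0.372 and 0.27 in WT. For most gene lists, the number of members that lay higher on this array than on the proliferating array of clone 4 is given. Over all features it was 3989 of 9500. Calls with this array or that of clone 4 left out are given over all features only. In each case the single proliferating array left was assumed to vary like the other groups. Such fits also called more of all features than the main fit.

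At an adjusted p under 0.05, starved E2F3LQ MEFs had higher levels of genes such as Gsn, Cdkn2a and the complement gene C4b, and lower levels of genes such as Acta1, Aurka and the cholesterol gene Cyp51. Of 9500 features, 266 were higher in the starved cells, which is 2.8%, and 233 were lower, which is 2.45%. At least a 2-fold change was seen in 176 of the former and 136 of the latter. All 266 and 233 moved the same way in both clones, and in none of them did the starved and the proliferating arrays overlap. The calls were made on this same contrast, so this is no separate support. Over all features, the starved arrays lay above both proliferating arrays in 25.5% and below both in 25.1%. Before adjustment, a p under 0.05 was found for 1237 features higher, 13%, and 1184 lower, 12.5%. With the clone as a block, the calls were 205 higher and 180 lower, of which 164 and 133 were shared with the unblocked fit. These calls use the spread of all 8 arrays. A fit on the 4 E2F3LQ arrays alone called 0 genes in either direction, while 834 were higher and 814 lower before adjustment, and the methods' t-test on them also left 0 after adjustment, with 618 and 630 before it. Without the proliferating array of clone 2 the calls were 516 and 454, and without that of clone 4 they were 683 and 623. They were 16 and 5 without the starved array of clone 2, and 21 and 4 without that of clone 4.

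Taken clone by clone, the responses overlapped in part. At least a 2-fold rise was measured for 489 features in clone 2 and 474 in clone 4, and 172 were shared. At least a 2-fold fall was measured for 474 and 356 features, and 124 were shared. The same direction was seen in both clones for 65.4% of the features. Opposite changes of 2-fold or more were nearly all of 1 kind, with 45 features lower in clone 2 and higher in clone 4, and 1 feature the other way.

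**Figure D1:**
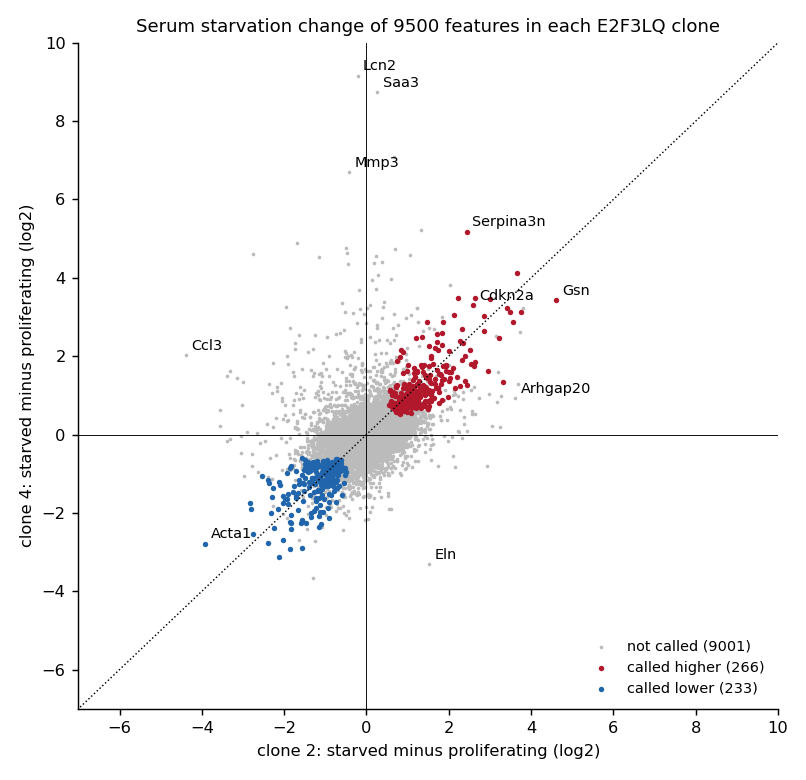
Log2 change from proliferating to starved cells in E2F3LQ clone 2 (x axis) and clone 4 (y axis) for 9500 features, 1 point each. The 266 features called higher (red) and 233 called lower (blue) lie near the dotted line of equal change, while Lcn2, Saa3 and Mmp3 lie high in clone 4 and near 0 in clone 2.

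The gene with the largest rise among those called was Gsn. Gelsolin (Gsn), which severs actin filaments and also has a secreted form, was at 4.92 and 5.54 in proliferating clones 2 and 4 and at 9.54 and 8.97 in the starved clones, a mean log2 change of 4.02 ± 0.34 (SE, adjusted p = 0.00528) or 16.2-fold. Both starved arrays lay above both proliferating arrays, which the rule for picking these genes asks for. Apod, a lipid-binding lipocalin, rose by 3.88 ± 0.66 (adjusted p = 0.0277), from 7.67 and 5.75 to 11.33 and 9.86. Clone 2 lay above clone 4 in both conditions for this gene, and the changes of 3.66 and 4.11 were alike.

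Dermatopontin (Dpt), a small protein of the extracellular matrix, rose from 5.70 and 5.17 to 9.12 and 8.40, by 3.32 ± 0.37 (adjusted p = 0.00987). Pamr1, a secreted protein with a protease-like domain, rose from 6.81 and 6.77 to 10.28 and 9.90, by 3.30 ± 0.22 (adjusted p = 0.0041). Sfrp2, a secreted modulator of Wnt signalling, rose from 4.49 and 4.92 to 7.48 and 8.39, and 1 of its proliferating arrays was not detected. In all 3 genes the clones differed less within a condition than between conditions, which the rule for picking these genes favours.

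Hsd11b1, the enzyme that regenerates active glucocorticoid inside cells, went from 6.02 and 4.55 to 8.64 and 8.02, by 3.05 ± 0.47 (adjusted p = 0.0212). Svop, of the transporter superfamily, rose by 3.21 ± 0.34, Ifi27l2a, an interferon-inducible gene, by 2.95 ± 0.60, and Prl2c4, of the proliferin family, by 2.86 ± 0.52. The proliferin genes are near-identical copies, so that a probe for 1 of them may read others. Hsd11b1 and Prl2c4 were each detected on 1 of the proliferating arrays, that of clone 2.

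Among the 12 genes that fell most were the muscle actin genes Acta1 and Actg2. Acta1, the actin of skeletal muscle, was at 8.27 and 8.32 in proliferating cells and at 4.35 and 5.53 in starved cells, and fell by 3.35 ± 0.52 (SE, adjusted p = 0.0209). The starved array of clone 2 was at background. Actg2, a smooth muscle actin, fell from 10.56 and 11.10 to 8.70 and 8.18, by 2.39 ± 0.28 (adjusted p = 0.00987), and Tagln, an actin-binding protein of smooth muscle, from 9.45 and 10.23 to 7.88 and 7.33, by 2.24 ± 0.40 (adjusted p = 0.031). Myh10, a heavy chain of nonmuscle myosin, fell by 2.36 ± 0.28, and Itga7, a laminin receptor subunit, by 2.35 ± 0.43.

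Dctn1, the large subunit of the dynein activator dynactin, fell in both clones alike, from 8.85 and 8.96 to 6.09 and 6.42, or 2.65 ± 0.22 (adjusted p = 0.00528). Mfsd2a, a transporter of lysophospholipids, fell from 7.37 and 6.99 to 4.98 and 4.22, by 2.58 ± 0.31 (adjusted p = 0.00987). Nt5e, the surface enzyme that makes adenosine from AMP, fell by 2.30 ± 0.26 and the enolase gene Eno3 by 2.15 ± 0.32. The cartilage collagen gene Col2a1 fell by 2.63 ± 0.45 and was detected on 1 of its starved arrays. H2ac12, a replication-dependent histone gene, fell by 2.05 ± 0.34, and near-identical histone copies may share its probe.

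**Figure D2:**
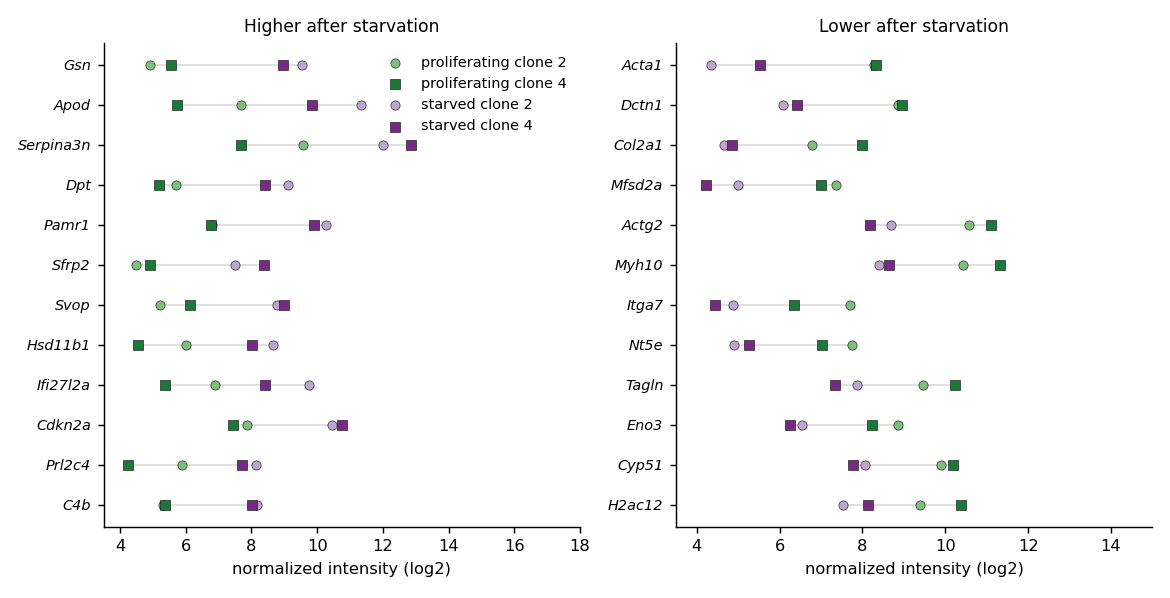
Log2 normalized intensity of the 12 genes with the largest rise (left) and the 12 with the largest fall (right), 1 row per gene and 1 point per E2F3LQ array. The 24 were picked from called genes whose starved arrays (purple) both lie on 1 side of both proliferating arrays (green), so this separation is no result. Gsn, for example, went from 4.92 and 5.54 to 9.54 and 8.97.

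The cell cycle genes fell most clearly at mitosis. Of 36 measured mitosis and G2/M genes, 12 fell and 0 rose at the adjusted threshold, against 2.45% falling and 2.8% rising over all features. The median change of the list was -0.913, against 0.0111 over all features, and it was -0.549 in clone 2 and -1.34 in clone 4. In 31 of the 36 both clones were lower after starvation. With the clone as a block 7 of the 36 fell, among them the histone gene H2az1 (adjusted p = 0.0358, and 0.0583 without the block). The proliferating array of clone 2 lay above that of clone 4 in 1 of the 36.

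Aurka, the Aurora A kinase of the spindle poles, was at 8.68 and 9.11 in proliferating and 7.46 and 7.40 in starved cells, and fell by 1.47 ± 0.20 (adjusted p = 0.0162). Cdca8, or borealin, and Birc5, or survivin, are partners in the chromosomal passenger complex. Cdca8 fell from 6.82 and 6.98 to 5.43 and 5.63, by 1.37 ± 0.19 (adjusted p = 0.0162), and Birc5 from 8.53 and 9.29 to 7.46 and 7.32, by 1.52 ± 0.25 (adjusted p = 0.0254). The starved clones were close to each other for all 3 genes, and the proliferating array of clone 2 lay below that of clone 4.

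The mitotic kinase Plk1 fell by 1.31 ± 0.24 and Prc1, which bundles the microtubules of the spindle midzone, by 1.33 ± 0.25. The kinesin Kif23 of the midzone fell from 7.33 and 8.22 to 6.18 and 6.15, by 1.61 ± 0.30 (adjusted p = 0.0324). The kinesins Kif22 and Kif2c, the histone genes H2ax and Cenpa, and Spdl1 and Incenp of the kinetochore and the inner centromere were also called lower, by 0.93 to 1.41. Their adjusted p-values with the clone as a block were between 0.0555 and 0.0756, past the threshold.

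The promoters of Cdca8, Aurka and Birc5, the cell cycle genes with the smallest p, are printed because mitotic promoters are known for CCAAT boxes, which bind NF-Y, and for the CHR element TTTGAA, which binds the DREAM complex. The sequences are RefSeq's, of build GRCm38.p6, with 250 bases before and 50 after the start of the gene, at chr4:124936868-124937167 on the minus strand, chr2:172370521-172370820 on the minus strand and chr11:117848987-117849286 on the plus strand. Capitals mark CCAAT and TTTGAA on either strand, so that ATTGG is a CCAAT box on the opposite strand.
Cdca8: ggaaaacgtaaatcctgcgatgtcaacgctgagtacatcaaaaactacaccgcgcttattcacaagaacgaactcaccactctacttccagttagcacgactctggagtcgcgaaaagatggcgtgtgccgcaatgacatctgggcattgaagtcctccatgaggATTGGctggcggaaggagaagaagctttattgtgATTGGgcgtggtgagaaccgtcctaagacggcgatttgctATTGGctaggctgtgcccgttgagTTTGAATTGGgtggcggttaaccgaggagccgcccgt
Aurka: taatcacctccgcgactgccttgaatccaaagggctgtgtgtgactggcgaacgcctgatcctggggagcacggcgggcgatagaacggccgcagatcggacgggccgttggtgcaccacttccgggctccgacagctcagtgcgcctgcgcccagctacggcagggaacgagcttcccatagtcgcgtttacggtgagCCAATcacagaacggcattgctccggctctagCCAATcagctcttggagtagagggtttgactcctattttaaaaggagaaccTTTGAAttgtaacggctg
Birc5: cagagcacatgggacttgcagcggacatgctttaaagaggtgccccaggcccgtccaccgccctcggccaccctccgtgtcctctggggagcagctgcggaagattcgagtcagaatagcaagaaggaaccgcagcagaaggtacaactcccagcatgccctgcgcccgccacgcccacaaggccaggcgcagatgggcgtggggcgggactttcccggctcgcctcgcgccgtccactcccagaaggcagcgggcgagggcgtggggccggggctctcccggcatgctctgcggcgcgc
The window of Cdca8 held 4 CCAAT boxes and 1 TTTGAA, which overlaps the last box by 1 base. That of Aurka held 2 and 1, and that of Birc5 held 0 of either. Of the mitosis genes measured, 28 had a promoter in the table, of which 71.4% held CCAAT and 75% TTTGAA, against 41.1% and 20.2% of all 27025 genes with a promoter. The E2F sites TTTGGCGC, TTTCCCGC and TTTCGCGC, searched on both strands, were in 7.14% of the mitosis genes and in 31.7% of the 41 DNA replication genes with a promoter, against 2.12% of all genes. A match is a description of these letters and not a site.

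DNA replication and G1/S genes were lower in many arrays, and few passed the test. Of 48 measured, 1 fell and 0 rose, against 2.45% and 2.8% of all features. At an unadjusted p under 0.05, 14 were lower, against 12.5% of all features. The median change was -0.411, of which clone 2 gave -0.0898 and clone 4 gave -0.623. In 23 of the 48 the starved arrays lay below both proliferating arrays, against 25.1% of all features. The gene called was Tyms, thymidylate synthase, which fell from 9.23 and 9.24 to 8.29 and 8.43, by 0.88 ± 0.15 (adjusted p = 0.0285, and 0.0571 with the clone as a block). Mcm3, a subunit of the replicative helicase, was at 6.58 and 7.17 in proliferating and 5.85 and 6.15 in starved cells (adjusted p = 0.0702), and Ccne2, a partner of Cdk2 at G1/S, at 5.53 and 6.18 and then 4.58 and 4.80 (adjusted p = 0.052, and 0.0358 with the block). The proliferating array of clone 2 was below that of clone 4 in 45 of the 48 genes. Without it the median change was -0.612.

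Of the 24 measured genes of the E2F and Rb families, cyclins and CDK inhibitors, 1 rose and 0 fell. Over all features 2.8% rose and 2.45% fell. The gene that rose was Cdkn2a, which encodes the CDK inhibitor p16INK4a and the p53 activator ARF. Cdkn2a was at 7.85 and 7.44 in proliferating and at 10.45 and 10.74 in starved cells, a rise of 2.95 ± 0.24 (SE, adjusted p = 0.00528) or 7.72-fold. The clones differed far less from each other than the conditions did, which a call on this contrast favours. E2f3 itself was at 6.74 and 6.60 in proliferating and at 6.14 and 6.01 in starved cells, a change of -0.59 ± 0.15 (adjusted p = 0.0657).

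The other E2F genes did not pass the test. E2f1 was at 8.91 and 9.05 before and 9.52 and 9.35 after starvation, a change of 0.46 ± 0.16 (adjusted p = 0.131). E2f2, E2f4, E2f5 and E2f6 had mean changes between -0.30 and -0.10. Rb1, the retinoblastoma protein that restrains the activating E2Fs, was at 7.07 and 7.01 and then at 7.59 and 7.53 (adjusted p = 0.0884), and Rbl1, or p107, changed by 0.04 ± 0.21. Ccnd1, the cyclin that links mitogens to Rb, was at 12.03 and 12.27 and then at 12.50 and 12.72 (adjusted p = 0.16), and Cdkn1b, or p27, changed by -0.10 ± 0.19. In 9 of the 24 genes the proliferating array of clone 2 lay above that of clone 4.

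Cholesterol synthesis was the pathway with the largest share of called members. Of 21 measured genes of synthesis and uptake, 10 fell and 0 rose, against 2.45% falling and 2.8% rising over all features. The median change was -1.01, or -0.645 in clone 2 and -1.33 in clone 4. In 15 of the 21 the starved arrays lay below both proliferating arrays, against 25.1% of all features. The factor SREBP2, encoded by Srebf2, drives these genes when sterols are low. Srebf2 fell from 8.36 and 8.57 to 7.44 and 7.46, by 1.01 ± 0.16 (adjusted p = 0.0221), and Insig1, which holds SREBP in the endoplasmic reticulum and is its target, from 6.75 and 7.28 to 5.53 and 5.39, by 1.55 ± 0.21 (adjusted p = 0.0149).

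The falls ran along the pathway. Mvd, which forms isopentenyl diphosphate, went from 8.62 and 8.83 to 6.79 and 6.77, a fall of 1.94 ± 0.19 (adjusted p = 0.00718). Fdps, which makes farnesyl diphosphate, went from 12.18 and 12.51 to 10.62 and 10.31, a fall of 1.88 ± 0.23 (adjusted p = 0.0106). Cyp51, the sterol 14-demethylase, went from 9.90 and 10.18 to 8.07 and 7.78, a fall of 2.12 ± 0.20 (adjusted p = 0.00718) or 4.34-fold. Nsdhl, which acts soon after Cyp51, fell by 2.02 ± 0.23 (adjusted p = 0.00987), and the sterol carrier gene Stard4 by 1.73 ± 0.30 (adjusted p = 0.028).

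The enzyme genes Lss, Msmo1 and Pmvk fell by 1.70, 1.52 and 0.89, with adjusted p-values of 0.032, 0.0387 and 0.0432, and of 0.0569, 0.0665 and 0.0567 with the clone as a block. With the block 7 of the 21 genes were called lower. Squalene epoxidase (Sqle) was at 10.23 and 11.24 and then at 9.69 and 9.24, with an adjusted p of 0.088. In 16 of the 21 genes both clones were lower after starvation. In 5 of the 21 the proliferating array of clone 2 lay above that of clone 4.

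The promoters of Cyp51, Mvd and Nsdhl, the cholesterol genes with the smallest p, are printed because SREBP2 is known to act on sterol elements beside CCAAT boxes. They lie at chr5:4104648-4104947 on the minus strand, chr8:122443373-122443672 on the minus strand and chrX:72918271-72918570 on the plus strand of the same build, with the same window. Capitals mark CCAAT on either strand.
Cyp51: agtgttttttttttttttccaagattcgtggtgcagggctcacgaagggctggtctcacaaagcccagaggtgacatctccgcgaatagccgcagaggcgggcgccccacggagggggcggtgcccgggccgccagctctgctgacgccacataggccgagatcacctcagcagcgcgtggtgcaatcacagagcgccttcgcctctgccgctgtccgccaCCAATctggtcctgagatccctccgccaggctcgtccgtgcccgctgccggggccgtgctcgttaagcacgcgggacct
Mvd: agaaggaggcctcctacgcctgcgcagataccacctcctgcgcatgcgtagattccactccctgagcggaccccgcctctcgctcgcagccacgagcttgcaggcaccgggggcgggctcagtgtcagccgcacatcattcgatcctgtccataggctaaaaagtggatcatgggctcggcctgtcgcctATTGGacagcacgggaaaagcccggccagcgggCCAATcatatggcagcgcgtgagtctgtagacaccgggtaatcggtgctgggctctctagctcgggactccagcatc
Nsdhl: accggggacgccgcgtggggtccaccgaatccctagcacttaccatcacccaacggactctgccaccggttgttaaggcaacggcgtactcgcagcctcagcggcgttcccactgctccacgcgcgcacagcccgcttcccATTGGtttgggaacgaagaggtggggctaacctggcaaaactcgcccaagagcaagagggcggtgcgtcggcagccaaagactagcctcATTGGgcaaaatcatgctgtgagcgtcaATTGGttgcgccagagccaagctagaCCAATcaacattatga
These windows held 1, 2 and 4 CCAAT boxes. CCAAT was in 94.4% of the 18 cholesterol genes with a promoter and in 100% of the 8 called ones among them, against 41.1% of all genes. The sterol element core TCACNCCA, searched on both strands, was in none of the 3 windows, in 16.7% of the 18 genes and in 4.97% of all genes.

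Genes of fatty acid synthesis and lipid storage moved both ways. Of 29 measured, 2 were called higher and 2 lower, against 2.8% and 2.45% of all features. Scd1, the stearoyl-CoA desaturase, fell from 9.40 and 9.64 to 7.84 and 7.47, by 1.87 ± 0.33 (adjusted p = 0.0298), and the desaturase Fads2 fell by 1.12 ± 0.21 (adjusted p = 0.0332). The lipid carrier Apoe rose from 5.51 and 5.95 to 7.89 and 7.95, by 2.19 ± 0.24 (adjusted p = 0.00987), and Apod is given above. In both clones these carriers rose and the desaturases Scd1 and Fads2 fell. Scd2, Fads1 and Scd4, the last near background, were also lower in both. Fads3 changed by 0.35 in clone 2 and by -0.15 in clone 4. Clone 2 lay above clone 4 on the proliferating arrays in 11 of the 29.

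**Figure D3:**
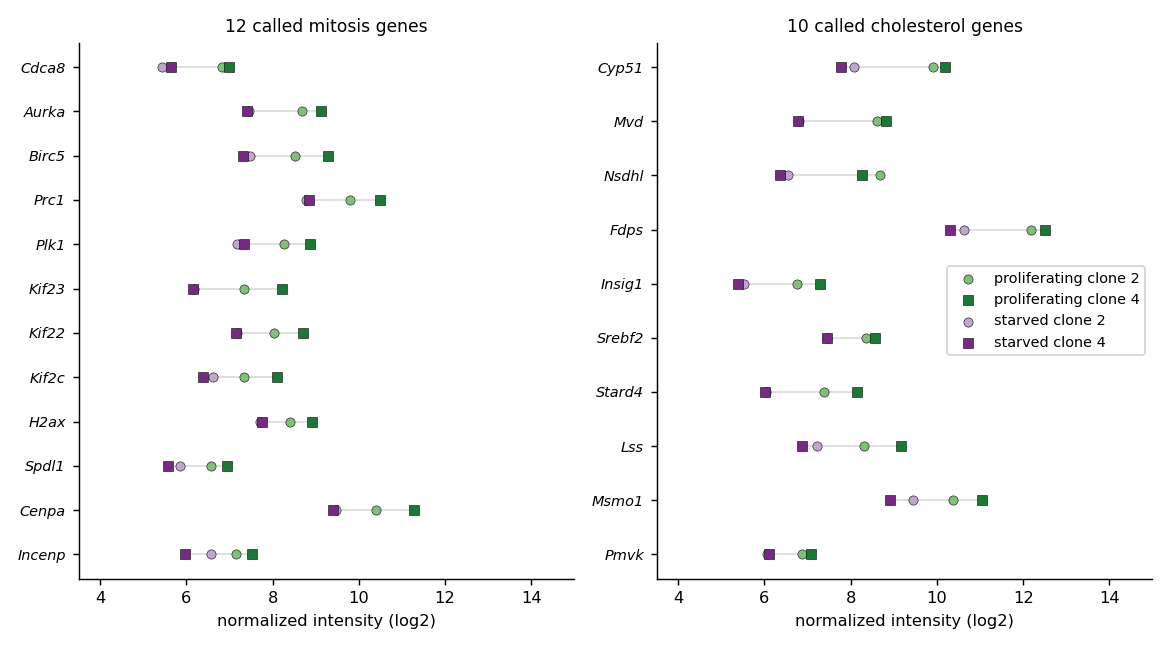
Log2 normalized intensity of the 12 mitosis genes (left) and the 10 cholesterol genes (right) called lower after starvation, 1 row per gene and 1 point per E2F3LQ array. The starved arrays (purple) lie left of both proliferating arrays (green) in every row, which the choice of called genes favours. The proliferating array of clone 2 (circle) lies left of that of clone 4 (square) in each mitosis gene.

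Actin and contractile genes, many of them targets of serum response factor, had lower levels in starved cells. Of 34 measured, 7 fell and 0 rose, against 2.45% and 2.8% of all features. At an unadjusted p under 0.05, 21 were lower, against 12.5% of all features. The median change was -0.817, with -0.581 in clone 2 and -0.855 in clone 4, and both clones were lower in 29 of the 34. Mylk, the kinase that activates myosin light chain, fell from 8.54 and 8.86 to 7.06 and 6.61, by 1.86 ± 0.25 (adjusted p = 0.0158). Pfn1, or profilin, fell by 0.94 ± 0.17, the myosin light chain Myl6 by 1.00 ± 0.18 and Pdlim7, a scaffold of actin filaments, by 0.97 ± 0.17. Actb, the cytoplasmic beta actin, went from 13.77 and 13.79 to 12.83 and 12.88 on its brightest probe, a fall of 0.93 ± 0.15 (adjusted p = 0.022), while the mean of its probes changed by 0.44. With the clone as a block 9 of the 34 were called lower, among them Csrp1 (adjusted p = 0.0458) and Ankrd1 (adjusted p = 0.0474).

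Immediate early genes, which serum switches on within minutes, gave few calls after 72 h without it. Of 32 measured, 1 rose and 1 fell, against 2.8% and 2.45% of all features. The median change was -0.149. Clone 2 lay above clone 4 on the proliferating arrays in 23 of the 32. Klf4, a factor that restrains growth, rose from 6.90 and 7.34 to 8.29 and 8.58, by 1.32 ± 0.24 (adjusted p = 0.03), and Klf2 was at 8.28 and 8.13 and then at 6.35 and 7.14 (adjusted p = 0.0493, and 0.0558 with the clone as a block). Fos was at 7.80 and 7.48 and then at 7.46 and 7.59, and Egr1 at 11.14 and 11.54 and then at 10.82 and 11.87. Ccn2, a matricellular protein induced by serum, was at 13.30 and 12.97 and then at 12.01 and 11.00 (adjusted p = 0.0543, and 0.0295 with the block). For Fos and Egr1 the starved and proliferating arrays overlapped.

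Of 16 measured feedback genes and targets of ERK, the Ras pathway kinase, 1 rose and 1 fell, against 2.8% and 2.45% of all features. These were Spred1, an inhibitor of the pathway, with a change of 0.85 ± 0.17 (adjusted p = 0.039), and the ETS factor Etv4, which went from 7.29 and 6.83 to 5.99 and 6.13 (adjusted p = 0.0489). With the clone as a block their adjusted p-values were 0.0665 and 0.0736. The median change of this list was -1.14 in clone 2 and 0.028 in clone 4. Its median level was 8.25 in proliferating clone 2 and 6.67 in proliferating clone 4, and 6.17 and 6.10 in the starved clones. In 14 of the 16 the proliferating array of clone 2 lay above that of clone 4.

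The 45 measured genes linked to growth arrest and quiescence had a median change of 0.26. Of them 4 rose and 0 fell, against 2.8% and 2.45% of all features. Beside Dpt these were Gas6, a ligand of the TAM receptors first found in growth-arrested fibroblasts, the repressor Bcl6 and the clock factor Tef. Gas6 rose from 10.90 and 11.03 to 12.63 and 12.23, by 1.47 ± 0.18 (adjusted p = 0.00987). Bcl6 and Tef had changes of 0.86 ± 0.15 and 0.92 ± 0.17, with adjusted p-values of 0.0295 and 0.0324, and of 0.0569 and 0.0568 with the clone as a block. Pdgfra, the PDGF receptor alpha, was at 8.97 and 8.66 and then at 10.30 and 10.40 (adjusted p = 0.0525, and 0.0489 with the block). Clone 2 lay above clone 4 on the proliferating arrays in 20 of the 45.

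Genes induced by p53 gave 4 called higher and 0 lower of 25 measured, against 2.8% and 2.45% of all features. In both clones 18 of the 25 were higher and 1 was lower, against 3211 and 2999 of all 9500 features, and the median change was 0.459. Cd80, a costimulatory receptor ligand, rose from 7.50 and 6.93 to 9.17 and 9.12, by 1.94 ± 0.22 (adjusted p = 0.00987), and Ddit4l, an inhibitor of mTOR signalling, from 9.08 and 9.11 to 10.10 and 10.40, by 1.15 ± 0.18 (adjusted p = 0.0213). Pidd1, which forms a caspase platform, rose by 1.00 ± 0.21 (adjusted p = 0.0457), and Ei24 had a change of 0.88 ± 0.19 (adjusted p = 0.0432, and 0.052 with the clone as a block). Cdkn1a, the CDK inhibitor p21, was at 13.07 and 12.22 and then at 12.81 and 12.60, and these levels overlapped. On the proliferating arrays clone 2 lay above clone 4 in 16 of the 25.

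Matrix, lysosome and antioxidant genes gave scattered calls. Of 50 collagens and matrix genes 1 rose and 1 fell, against 2.8% and 2.45% of all features. Their median change was 0.143. Fibulin 1 (Fbln1) rose from 8.81 and 9.55 to 11.36 and 11.36, by 2.18 ± 0.36 (adjusted p = 0.0254), and the basement membrane collagen Col4a2 was at 11.99 and 12.22 and then at 11.32 and 11.34 (adjusted p = 0.0432, and 0.0736 with the clone as a block). Of 13 genes of the IGF axis, Igfbp3, a binding protein that limits IGF, rose from 8.80 and 8.99 to 10.62 and 10.27, by 1.55 ± 0.27 (adjusted p = 0.0295), and no other passed. On the proliferating arrays clone 2 lay above clone 4 in 20 of the 50 matrix genes and in 3 of the 13 IGF genes. Under the clone block Col6a2 was called higher (adjusted p = 0.0328), and Thbs1 (adjusted p = 0.0358) and Tnc (adjusted p = 0.0289) lower.

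Of 49 lysosome and autophagy genes 4 rose and 1 fell, against 2.8% and 2.45% of all features. The protease genes Ctsf and Lgmn moved apart, Ctsf from 7.66 and 7.27 to 8.90 and 8.86 (adjusted p = 0.00987) and Lgmn from 10.27 and 10.09 to 9.12 and 9.06 (adjusted p = 0.0295). The other 3, Man2b1, Lipa and Tpp1, had changes of 0.84, 1.31 and 0.73, with adjusted p-values of 0.0736, 0.0643 and 0.078 under the clone block. Of 35 NRF2 targets and antioxidant genes, the carbonyl reductase Cbr3 rose by 1.43 ± 0.20 (adjusted p = 0.0179) and the glutathione transferase Gsta4 by 1.31 ± 0.23 (adjusted p = 0.0294). The median change of this list was -0.151 in clone 2 and 0.471 in clone 4. On the proliferating arrays clone 2 lay above clone 4 in 28 of these 35 genes and in 30 of the 49 lysosome genes. Under the clone block Aldh3a1 was called higher (adjusted p = 0.0495) and Gsto1 lower (adjusted p = 0.0265).

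Complement and acute phase genes had the largest median change of the lists, 1.79. Of 19 measured, 5 rose and 0 fell, against 2.8% and 2.45% of all features. C4b, the fourth complement component, was at 5.31 and 5.37 in proliferating and at 8.17 and 8.01 in starved cells, a rise of 2.75 ± 0.16 (SE, adjusted p = 0.00205) or 6.73-fold. The change of C4b was close in the clones. C1s1, a protease of the first component, rose from 6.00 and 5.20 to 8.13 and 8.25, by 2.60 ± 0.25 (adjusted p = 0.00718). Cfb, or factor B, was not well above background on both proliferating arrays and reached 6.06 and 6.32 after starvation, at least 2.78-fold higher (adjusted p = 0.00734), a bound taken against the lowest detected signal on the proliferating arrays. A probe for C4b may also read its near-identical copy C4a.

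The acute phase inhibitor Serpina3n rose in both clones and more in clone 4, from 9.57 to 12.02 in clone 2 and from 7.68 to 12.86 in clone 4, by 3.81 ± 0.58 in the mean (adjusted p = 0.02). Ptx3, a pentraxin that binds C1q, rose from 10.20 and 9.05 to 11.91 and 11.63, by 2.14 ± 0.40 (adjusted p = 0.0328). Serping1, the inhibitor of C1s, was at 10.55 and 8.11 and then at 12.39 and 11.11, with an adjusted p of 0.1055 and of 0.0252 with the clone as a block. The median change was 0.603 in clone 2 and 2.64 in clone 4. In 15 of the 19 genes the proliferating array of clone 2 lay above that of clone 4.

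The clones were also apart in the interferon and NF-kB lists. Of 51 interferon response genes 1 rose and 0 fell at the adjusted threshold, against 2.8% and 2.45% of all features. At an unadjusted p under 0.05, 9 of the 51 were higher, against 13% of all features. The median change was 0.0469 in clone 2 and 1.80 in clone 4. The median level of the list was 9.44 in proliferating and 9.58 in starved clone 2, and 6.36 and 8.79 in clone 4. In all 51 genes the proliferating array of clone 2 lay above that of clone 4. Without it the median change was 2.07, and without that of clone 4 it was -0.263. The direction of these shifts follows from the levels and is no separate result.

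The gene called with all arrays was Tap2, a subunit of the peptide transporter of MHC class I, which went from 7.75 and 6.36 to 9.60 and 9.23, a rise of 2.36 ± 0.41 (adjusted p = 0.0285). Other genes of class I presentation were close to the threshold. Psmb9, an immunoproteasome subunit, was at 6.60 and 5.09 and then at 8.24 and 7.78 (adjusted p = 0.0516, and 0.0358 with the clone as a block), and H2-D1, a class I heavy chain, at 5.36 and 4.58 and then at 7.05 and 6.07 (adjusted p = 0.0622, and 0.0189 with the block). With the block 5 of the 51 were called higher, among them Bst2 (adjusted p = 0.0433) and Oas2 (adjusted p = 0.0334). The antiviral genes Isg15, Rsad2 and Ifit3 differed between the clones: Isg15 went from 11.72 to 12.78 in clone 2 and from 7.48 to 12.06 in clone 4, Rsad2 from 10.07 to 9.89 and from 5.11 to 8.79, and Ifit3 from 12.83 to 13.06 and from 8.53 to 12.24.

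Of 43 NF-kB targets, chemokines and cytokines, 2 rose and 1 fell, against 2.8% and 2.45% of all features. The median change was -0.30 in clone 2 and 1.26 in clone 4. Beside Ptx3, Il33, an alarmin of the interleukin 1 family, rose from 4.32 and 5.01 to 6.78 and 6.26, by 1.85 ± 0.36 (adjusted p = 0.0359). Ppbp, a CXC chemokine, was at 7.54 and 6.85 and then at 4.99 and 5.80, a change of -1.80 ± 0.37 (adjusted p = 0.0423, and 0.066 with the clone as a block). Cxcl1, a chemokine for neutrophils, was at 14.13 in proliferating and 14.36 in starved clone 2, and at 9.80 and 14.36 in clone 4. In 37 of the 43 the proliferating array of clone 2 lay above that of clone 4. The median levels of clones 2 and 4 were 8.87 and 6.16 in proliferating and 8.69 and 7.95 in starved cells. Under the clone block 4 were called higher, among them Ccl11 (adjusted p = 0.0289) and Icam1 (adjusted p = 0.0476).

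**Figure D4:**
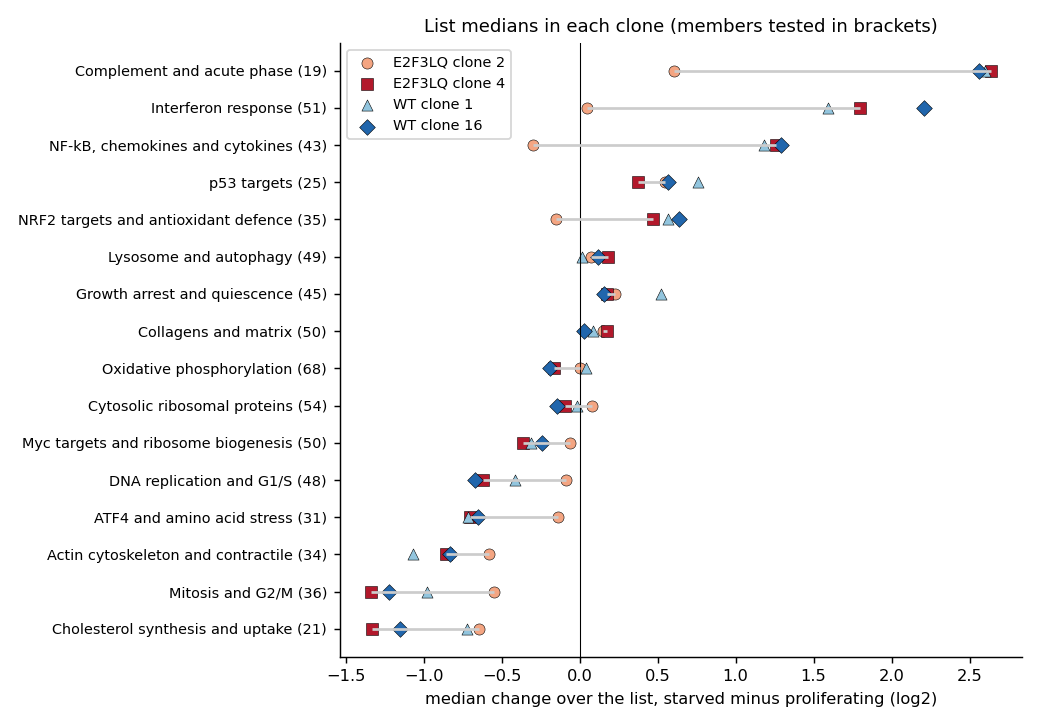
Median log2 change from proliferating to starved cells over the measured members of 16 gene lists, 1 point per clone (E2F3LQ clones 2 and 4, WT clones 1 and 16), with a grey bar joining the E2F3LQ clones. In the complement, interferon and NF-kB lists clone 2 of E2F3LQ lies near 0.603, 0.0469 and -0.30 while the other 3 clones lie above 1, and in the mitosis and cholesterol lists all 4 clones lie below -0.5.

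The genes whose change differed most between the E2F3LQ clones are given as values, with no test. Lcn2, a lipocalin that binds bacterial siderophores, was at 14.31 in proliferating and 14.10 in starved clone 2, and went from background, 4.32, to 13.48 in clone 4. Saa3, an acute phase protein, was at 13.75 and 14.01 in clone 2 and at 4.64 and 13.37 in clone 4. Mmp3, a matrix protease, was at 13.62 and 13.19 in clone 2 and at 6.15 and 12.84 in clone 4. The starved clones were thus within 1 log2 unit of each other for these 3 genes, and the proliferating clones were more than 7 apart.

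For 3 chemokine genes clone 2 was lower after starvation and clone 4 higher. Ccl5 was at 12.08 and then 9.31 in clone 2 and at 4.37 and then 8.97 in clone 4, Ccl3 at 10.28 and then 5.90 and at 4.69 and then 6.71, and Ccl2 at 11.37 and then 10.22 and at 5.18 and then 9.72. Haptoglobin (Hp) had a like pattern, with changes of -1.68 and 4.88, and Cxcl5 changed by -0.50 and 4.77. On WT arrays Lcn2 went from 4.46 and 4.62 to 13.36 and 13.30, and Saa3 from 4.79 and 4.67 to 13.50 and 13.60, so that the WT clones were close to clone 4 in both conditions.

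In the other direction, some genes were low in proliferating clone 2, and their signed change was above that of clone 4. Elastin (Eln) was at 4.85 in proliferating and 6.36 in starved clone 2, and at 11.01 and 7.69 in clone 4. The imprinted gene Mest was at 5.58 and 7.67 in clone 2 and at 10.12 and 9.56 in clone 4, and the endothelin receptor gene Ednrb at 5.85 and 8.78 and at 9.58 and 8.79. Pleiotrophin (Ptn), a growth factor that binds heparin, was at 9.83 and 12.88 in clone 2 and at 12.96 and 13.19 in clone 4. Osteoglycin (Ogn), Map2, Arhgap20 and Npr3 also had a signed change above that of clone 4, by 2.53 to 3.05 log2 units.

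**Figure D5:**
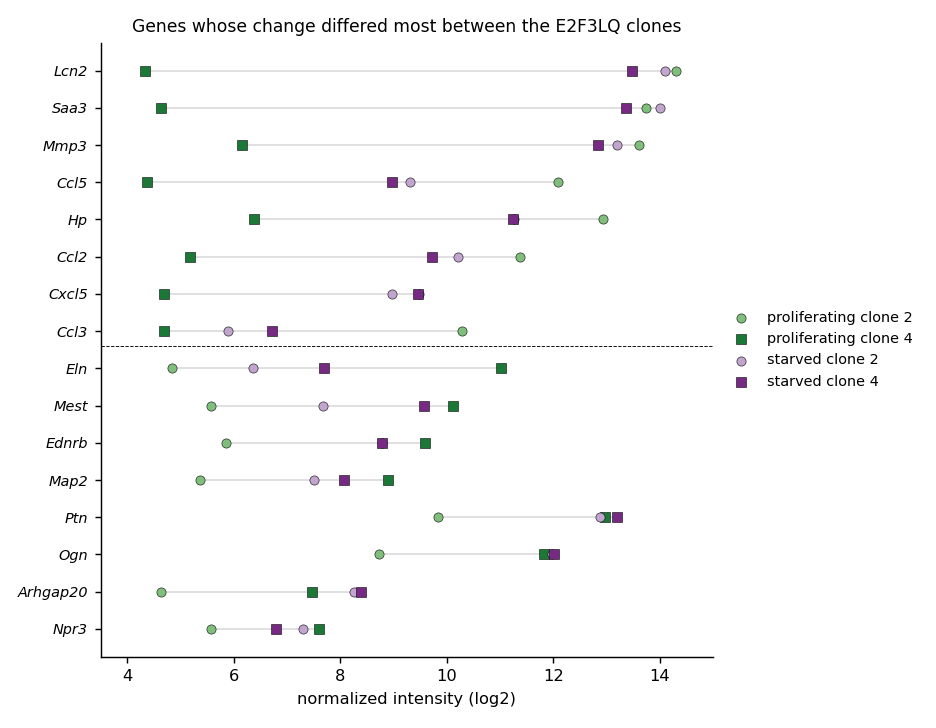
Log2 normalized intensity of the 16 genes whose change differed most between the E2F3LQ clones, 1 row per gene and 1 point per array, with genes whose signed change was higher in clone 4 above the dashed line and those with a higher signed change in clone 2 below it. The proliferating array of clone 2 (light green circle) lies at or near the high end above the line, as for Lcn2 at 14.31, and at the low end below it, as for Eln at 4.85.

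Metabolic and growth lists gave few calls. Of 33 glycolysis and hypoxia genes, Slc2a3, the glucose transporter GLUT3, was called lower, from 6.55 and 6.63 to 5.63 and 5.78 (adjusted p = 0.0449, and 0.0764 with the clone as a block). The median change of that list was -0.782 in clone 2 and 0.064 in clone 4, and the proliferating array of clone 2 lay above that of clone 4 in 29 of the 33. The median levels of clones 2 and 4 were 8.90 and 7.65 in proliferating and 8.28 and 8.09 in starved cells. Of 31 genes of ATF4 and amino acid stress, Atf4 itself was called lower, from 9.73 and 9.77 to 8.77 and 8.95 (adjusted p = 0.0298, and 0.0558 with the block). With the block 2 others passed, Psat1 of serine synthesis (adjusted p = 0.0242) and the pseudokinase gene Trib3 (adjusted p = 0.0265). In 3 of the 31 the proliferating array of clone 2 lay above that of clone 4.

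In the list of chaperones, Dnajb1, a partner of heat shock proteins, was at 10.45 and 10.38 and then at 11.13 and 11.06 (adjusted p = 0.0423, and 0.0769 with the clone as a block), and Edem1, which takes misfolded glycoproteins to degradation, fell by 1.20 ± 0.23 (adjusted p = 0.0366). Of 50 Myc targets and ribosome biogenesis genes, Ctps, the CTP synthase, rose by 1.01 ± 0.20 (adjusted p = 0.0391), and 10 were lower at an unadjusted p under 0.05, against 12.5% of all features. On the proliferating arrays clone 2 lay above clone 4 in 11 of these 50. Of 54 cytosolic ribosomal proteins and 68 genes of oxidative phosphorylation, limma called 0 with and without the block, while before adjustment 2 were higher and 4 lower in the former and 1 higher and 7 lower in the latter. Their median changes were -0.0654 and -0.0504. Clone 2 lay above clone 4 on the proliferating arrays in 7 of the 54 and in 18 of the 68.

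Markers of other cells that an embryo culture could hold were checked. Fibroblast markers were present on all 4 arrays, with Vim between 12.37 and 12.97 and Col1a1 between 11.54 and 12.88, and Prrx1, a factor of limb mesenchyme, was called lower (adjusted p = 0.0387, and 0.0662 with the clone as a block). Of 22 macrophage and blood cell markers 13 were measured, and Ptprc, or CD45, C1qa, Cx3cr1, Fcrls, Spi1 and Hba-a1 were on the array but did not pass the detection filter. The summed normalized intensity of the 13 was 11100 in proliferating and 3740 in starved clone 2, and 1960 and 8860 in clone 4. The lysozyme genes Lyz1 and Lyz2 weigh most in this sum. They were at 12.27 and 11.38 in proliferating clone 2 and at 12.34 and 11.05 in starved clone 4. No marker of the 13 lay higher in starved than in proliferating clone 2, and 10 did so in clone 4. The 3 that were lower in both clones, Mrc1, C1qb and C1qc, changed by -0.58, -0.49 and -0.16 in clone 4. In 12 of the 13 the proliferating array of clone 2 lay above that of clone 4. Adgre1, or F4/80, was at 7.34 and 5.78 in clone 2 and at 4.45 and 6.12 in clone 4. In clone 4, 10 of the 13 and the medians of the interferon, NF-kB and acute phase lists were higher after starvation. In clone 2 the median change of the markers was -1.56, and those lists had medians of 0.0469, -0.30 and 0.603. In WT the markers had a median change of 0.0472 (-0.441 in clone 1 and 0.469 in clone 16), and the lists 1.86, 1.23 and 2.58. The part of the marked cells in the changes of those lists was not tested. In bulk RNA, fewer cells of a type and less RNA per cell cannot be told apart.

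Of 4 endothelial markers Tek rose by 1.46 ± 0.27 (adjusted p = 0.0318), and Emcn went from 5.74 and 6.37 to background, at least 2.51-fold lower (adjusted p = 0.0361, and 0.0498 with the clone as a block). Of 5 measured epithelial markers 1 was called, Krt19, a keratin of simple epithelia. It went from 6.37 and 5.86 to background, at least 2.61-fold lower (adjusted p = 0.022). In 3 of the 5 both starved arrays lay above both proliferating arrays, namely Trp63, Krt15 and Cdh1, with changes of 1.06, 0.29 and 0.22. The muscle intermediate filament gene Des fell by 1.76 ± 0.39 (adjusted p = 0.0489) and Acta1 as given above, while Myog, the myogenic factor, lay between 4.94 and 5.32 on all 4 arrays. Nes, an intermediate filament gene of neural progenitors that other embryonic cells also express, was at 8.04 and 7.18 and then at 6.02 and 5.15 (adjusted p = 0.0757, and 0.0433 with the clone as a block).

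A list of genes picked for RT-PCR was also checked, and since it was chosen on these cells it is no independent evidence. Of its 21 measured members, 2 rose and 1 was lower, against 2.8% and 2.45% of all features. Ugt1a6a, a UDP glucuronosyltransferase, rose from 7.02 and 6.17 to 8.36 and 8.65, by 1.91 ± 0.29 (adjusted p = 0.0198). Probes for it may read other genes of the same locus, which share exons. Ptx3 and Ppbp are given above. Slc7a11 changed by -1.69 in clone 2 and by 0.30 in clone 4, and Srxn1 by -1.16 and 0.42. In both clones 5 of the 21 were higher and 12 lower. Of the replication and cell cycle genes among them, Mcm3, Cdk1, Mcm7, Mcm2, Tk1 and Chaf1a had lower starved than proliferating arrays in both clones, and Ccne1, at 6.46 and 6.77 and then at 6.49 and 6.45, overlapped.

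The response was set beside that of WT cells. All 266 features called higher and all 233 called lower had the same direction in WT, and 209 and 196 of them were also called there, of 396 and 440 WT calls. That is 78.6% and 84.1% of the E2F3LQ calls and 52.8% and 44.5% of the WT calls. The E2F3LQ and WT contrasts share no array but share the estimate of the spread. A test of the difference of the responses, the interaction of serum and genotype, called 0 of 9500 features (0%) with limma, where 77 were higher and 63 lower in E2F3LQ before adjustment. With the clone as a block it also called 0, with 91 and 93 before adjustment.

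The values with the smallest interaction p are given without a call. Apoe changed by 2.19 in E2F3LQ and by 0.41 in WT, a difference of 1.78 ± 0.34 (adjusted p = 1 by limma). Its proliferating level was 5.51 and 5.95 in E2F3LQ and 7.27 and 6.82 in WT, and its starved level 7.89 and 7.95, and 7.67 and 7.24. The genotypes were thus apart in proliferating cells and nearer in starved cells for this gene. Mrc1, the macrophage mannose receptor, changed by -0.85 in E2F3LQ and by -2.79 in WT, and Glrx3, a glutaredoxin, by -0.45 and 0.75. Without the proliferating array of clone 4 the interaction was called for 22 features higher and 110 lower, and without both arrays of that clone for 10 and 68. It was called for 0 without that of clone 2, with 80 higher and 91 lower before adjustment.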

How the data were processed

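The raw table that the authors deposited holds the linear intensity of every probe on every array, neither background-corrected nor normalized, beside the probe's detection p-value against negative control beads. The deposited table of normalized intensity values was used only as an alternative. The methods name GenomeStudio and the Mouse WG-6 array, of which 25697 probes were analysed here. Of these, 23978 had 1 gene symbol in the platform annotation, 0 had several and 1719 had none.

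Intensities of all 8 arrays were corrected and quantile-normalized with neqc (offset 16) of limma 3.58.1 in R 4.3.3 and put on the log2 scale. Probes with a detection p-value under 0.05 on at least 2 of the 4 E2F3LQ arrays were kept, and of 2295 genes with several such probes the brightest was used. A model of the 4 groups was fitted with lmFit and eBayes, with 4 residual and 3.12 prior degrees of freedom, and Benjamini-Hochberg adjustment ran over 9500 features, which were called under 0.05. Every adjusted p in the text is limma's. A feature whose arrays of a group were all below detection was given as a bound. Groups and clone numbers came from the labels. The clones pair the arrays, since embryo sex genes match within a clone, and the deviations of a clone's arrays from the group means correlated at 0.3 over features in E2F3LQ and at 0.0973 in WT. A fit blocked on the clone (statmod 1.5.0 for the random form) is given where it changes the call of a member of a gene list.

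The members, gene lists and tests were chosen with earlier results of these data known. Genes named are, first, the 12 highest and 12 lowest called. These had to change the same way in both clones, with no overlap of starved and proliferating arrays. Up to 6 of the smallest p in each list and the 8 each way that differed most between clones were added. Some of the 5 each way of the smallest interaction p, some of the genes measured by RT-PCR and the E2F and Rb families are also named. Genes named beyond this rule were chosen after their values were seen. Scripts were tested on simulated data. Other alternatives were the background correction, the scaling, the filter, the probe rule, the variance model, the arrays in the fit, the methods' t-test and leaving out each array or clone. Promoters are RefSeq's (GRCm38.p6), and the CHR motif was added after the data were seen. Figures were drawn with matplotlib 3.10.9.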

Additional observations from a re-analysis of the deposited data

How the results depend on the processing

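Against 266 higher and 233 lower genes, the calls were 0 and 0 in the fit on the 4 E2F3LQ arrays, in neqc with a fit on these arrays and in the methods' t-test, which have fewer arrays for the spread. Scaling to the median gave 128 higher, with 27.6% of the calls higher against 53.3%, and moved the median of all features by -0.167 against 0.0111. The clone as a random replicate block gave 380 lower. The fixed replicate block, which pairs the arrays by clone, gave 205 and 180. Leaving out single arrays or clones gave 0 to 683 higher and 0 to 623 lower, with 16 and 5 without the starved array of clone 2, 21 and 4 without that of clone 4, 516 and 454 without the proliferating array of clone 2, 683 and 623 without that of clone 4, 150 and 116 without either proliferating WT array, 60 and 31 without either starved WT array and 0 and 0 without either WT clone. The interaction ranged from 0 to 22 higher and from 0 to 110 lower, both highest without the proliferating array of clone 4. A WT group left with 1 array adds nothing to the spread. For the starved against proliferating calls, leaving out either WT clone therefore repeats the fit on the 4 E2F3LQ arrays. Likewise, either array of a WT group gives the same counts by design, so these are not separate results. The cause of the other shifts was not tested. Of 93 named genes that were called, 1 reversed, Actb with 0.4434 as the mean of its probes against -0.93. Under the fixed block 26 of the 93 lost the call, and under median scaling 11, among them Bcl6, Tef, Spred1, Dnajb1, Ei24, Pidd1, Man2b1, Tpp1 and Ctps. With the mean of a gene's probes Ctps, Klf4, Tyms and Ugt1a6a lost it as well as Actb. Signals near background limit the change of Cfb, Emcn and Krt19 to a lower bound. Other genes, such as Acta1, Sfrp2, Col2a1, Hsd11b1 and Prl2c4, were detected on 1 of the arrays of their lower group. Mfsd2a in starved clone 4 and Il33 in proliferating clone 2 also lay at the background.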
